A study of Rattus norvegicus with 7 samples.

Results

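Immediate early genes are the genes that neurons and other cells switch on first after a stimulus, from proteins that are already present in the cell. A list of 10 was followed here through rat hippocampus and hypothalamus: Fos, Fosb, Junb, Egr1, Egr2, Egr3, Egr4, Arc, Nr4a1 and Npas4. They were picked by gene symbol in the tables of both tissues, and for a symbol with several loci the locus with the highest mean was taken. Of these, 9 were measured in both tissues, out of 15805 symbols shared by the tables, and Fosb was not analysed here. The animals were male Sprague Dawley rats, 2 months old when they were assigned to a diet, and each was given a DHA diet for 6 weeks and then decapitated. DHA (docosahexaenoic acid) is an omega-3 fatty acid that is abundant in brain membranes. There were 4 hippocampus libraries and 3 hypothalamus libraries of poly-A RNA, all of them from DHA-fed rats. Chow-fed rats were not analysed here, so nothing below is an effect of DHA. The labels do not say whether libraries of the tissues came from the same rats.

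In a stimulated neuron, calcium entry and the MAP kinase and cAMP pathways activate factors that sit on the promoters of these genes beforehand, chiefly SRF with its ternary complex partners and CREB. Transcription starts within minutes, needs no new protein synthesis and is short-lived, because the transcripts decay fast. Most members encode transcription factors that then act on slower genes, while Arc encodes a synaptic protein that controls the removal of AMPA receptors. In hippocampus they are used as markers of neurons active during exploration and learning, and in hypothalamus as markers of neurons recruited by stress, thirst or feeding state.

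The starts of 4 members are shown as examples, since each holds a CRE core, with a CArG box as well in Egr2. Egr1 also holds both and is not shown. Being high or low in the same libraries did not set these 4 apart, since all 9 measured members shared that pattern. Npas4, whose window holds no CRE core, was among the 9. Each is the 250 bases before the annotated start in RefSeq on build GRCr8, written 5′ to 3′ on the strand of the gene. Capitals mark the core of the cAMP response element (CRE), TGACG or its complement CGTCA, the CArG box bound by SRF, and TATAAA on the strand of the gene. They are Egr2 (chr20:21054442-21054691, minus strand), Egr4 (chr4:119607818-119608067, minus strand), Nr4a1 (chr7:134259888-134260137, plus strand) and Junb (chr19:40080876-40081125, plus strand).
Egr2: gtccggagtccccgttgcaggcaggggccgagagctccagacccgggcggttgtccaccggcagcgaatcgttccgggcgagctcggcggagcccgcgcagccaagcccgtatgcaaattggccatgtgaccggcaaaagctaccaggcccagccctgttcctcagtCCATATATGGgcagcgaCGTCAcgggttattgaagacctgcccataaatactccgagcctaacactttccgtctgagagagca
Egr4: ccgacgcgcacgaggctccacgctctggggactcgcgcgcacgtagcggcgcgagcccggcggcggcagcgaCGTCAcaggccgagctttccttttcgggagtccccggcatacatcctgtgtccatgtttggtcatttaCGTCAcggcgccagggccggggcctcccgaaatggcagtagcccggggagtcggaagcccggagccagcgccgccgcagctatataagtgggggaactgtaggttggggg
Nr4a1: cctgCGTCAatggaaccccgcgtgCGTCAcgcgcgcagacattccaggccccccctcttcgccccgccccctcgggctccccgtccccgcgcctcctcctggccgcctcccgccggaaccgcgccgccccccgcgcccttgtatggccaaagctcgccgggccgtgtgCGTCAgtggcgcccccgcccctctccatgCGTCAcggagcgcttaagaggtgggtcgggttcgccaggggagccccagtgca
Junb: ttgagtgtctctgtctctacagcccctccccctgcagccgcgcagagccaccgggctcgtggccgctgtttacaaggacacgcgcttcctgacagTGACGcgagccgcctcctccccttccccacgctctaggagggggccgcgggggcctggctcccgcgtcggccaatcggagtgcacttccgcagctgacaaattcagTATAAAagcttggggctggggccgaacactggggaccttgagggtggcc

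Of the 9 measured members, 6 had a window in the promoter table. A CRE core was present in 5 of these 6 (Egr1, Egr2, Egr4, Junb and Nr4a1), against 19.0% of all 27457 windows of the same length, searched on both strands. Nr4a1 held 4 cores, Egr1 and Egr4 held 2 each, and Egr2 and Junb held 1 each. The CArG box was present in Egr1 and Egr2, against 1.50% of all windows. In both genes a CArG box lay 83 to 74 bases and a CRE core 66 to 62 bases before the start, and Egr1 held a further CArG box 105 to 96 bases before it. The site of the EGR proteins themselves, GCGNGGGCG, was present in Nr4a1, against 4.53% of windows. The full CRE (TGACGTCA), the AP-1 site (TGANTCA) and the NR4A site (AAAGGTCA) were present in none of the 6, against 1.70%, 6.36% and 1.11% of windows, and TATAAA was present in Junb, against 8.38%. The window of Npas4 held none of these letters. A CRE core lies inside a full CRE, so those counts overlap, and a match is a description of letters and not a binding site. The windows compared were not matched for base composition, and the 4 shown above were 62% to 74.8% G or C.

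Levels are FPKM, that is, fragments counted per kilobase of a transcript and relative to the size of the library, so they can be compared between genes of a table. For comparison across the tables, each library was rescaled to the same sum over shared symbols, and differences between tissues are differences of mean log2(rescaled FPKM + 1), which understate the change of low genes. The tissues were deposited in separate tables, so tissue and table cannot be told apart and no test was made across them. In bulk tissue, fewer cells of a type and less RNA per cell cannot be told apart either. The dissections matched their labels by marker genes. All 5 hippocampal markers listed for this (such as Neurod6, at 59.0 to 77.0 FPKM in hippocampus and 0.546 to 1.13 FPKM in hypothalamus) were higher in each hippocampus library, and all 5 hypothalamic markers were higher in each hypothalamus library. Summed deposited FPKM ran from 370020 to 471484 over the 7 libraries, and sequencing depth is unknown.

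Replicate 1 of each tissue stood apart from the other libraries in how the tables divided genes between loci. Among 961 symbols with exactly 2 loci in hippocampus and at least 5 summed FPKM in each library, the smaller locus held a median of 0.835% of the sum in replicate 1 and 17.5% to 23.1% in the others. Among 770 such symbols in hypothalamus it held 3.83% in replicate 1 and 19.0% to 19.5% in the others. In hippocampus replicate 1 had the smallest share of the 4 libraries for 71.5% of these symbols, and in hypothalamus it had the smallest of the 3 for 66.4%. The labels give the same preparation for all libraries, and the part of this difference in the values of replicate 1 was not tested. This covers genes with 1 locus too, since no value here shows how the division bears on them. Tissue differences of the members are given below with and without replicate 1.

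Most of the members read higher in hippocampus, and Fos was the exception. In 6 of 9 members (Egr2, Egr3, Egr4, Arc, Nr4a1 and Npas4) the lowest hippocampus library was above the highest hypothalamus library, where 28.2% of the 10736 symbols compared were. Fos alone was lower in each hippocampus library than in any hypothalamus library, which 24.4% of symbols were, and Junb and Egr1 overlapped. In either direction 7 of 9 members did not overlap, against 52.6% of symbols. With at least 2-fold between the means required as well, the 6 stayed and Fos did not pass, against 14.5% and 13.4% of symbols. The median difference over the members was 2.01 on the log2 scale, beside 0.05 over all symbols compared. Egr2 and Npas4 reached a mean of 1 FPKM in hippocampus alone and so could only appear as higher there. Among the 7 members at 1 FPKM or more in both tissues, 4 were higher in hippocampus, 1 was higher in hypothalamus and 2 overlapped, beside 28.7% and 21.8% of symbols with the same minimum. Without replicate 1 of both tissues the median difference over the members was 1.52. The counts of 6 and 1 were the same under FPKM as deposited, median-of-ratios scaling and upper-quartile scaling.

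**Figure D1:**
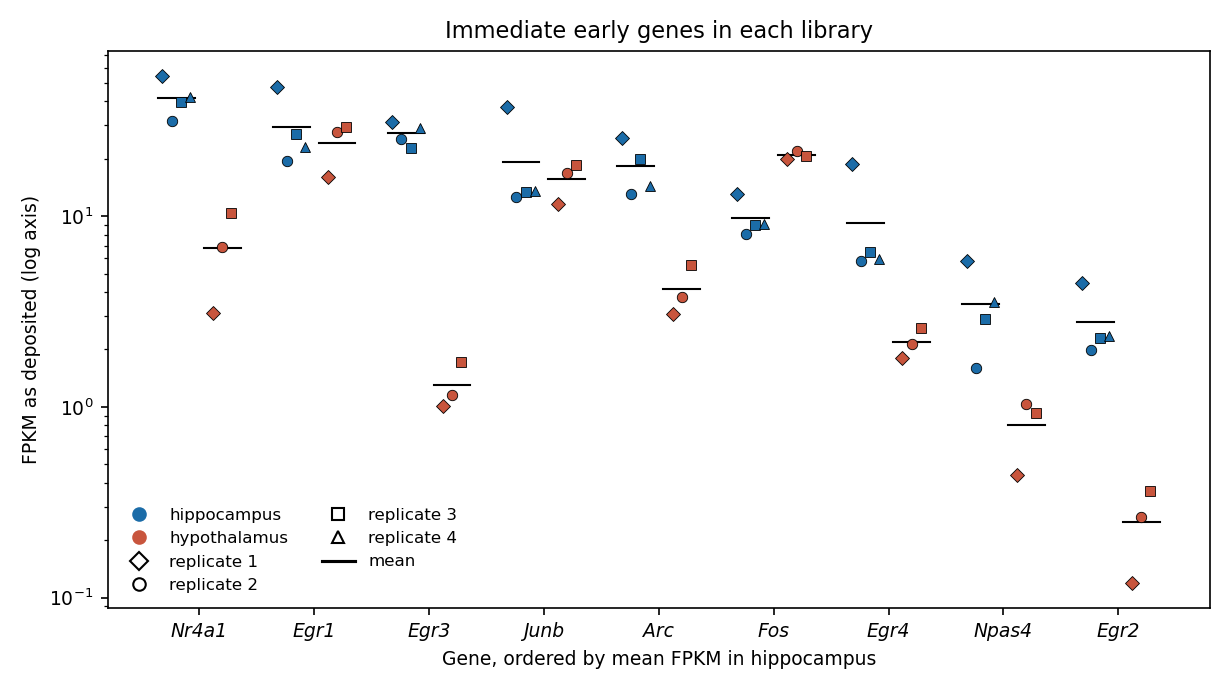
Deposited FPKM on a log axis for 9 immediate early genes, with a symbol for each library (hippocampus in blue, 4 libraries; hypothalamus in red, 3 libraries) and a bar at each mean. Replicate 1, drawn as a diamond, is the top hippocampus point and the bottom hypothalamus point of every gene, and Fos is the gene whose hypothalamus points all lie above its hippocampus points.

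The EGR family encodes zinc finger transcription factors that bind closely similar GC-rich sites, and its members differed most widely in how they separated the tissues. Egr3 read 31.1, 25.4, 22.8 and 29.1 FPKM in hippocampus replicates 1 to 4 and 1.02, 1.16 and 1.71 FPKM in hypothalamus replicates 1 to 3. It had the largest difference among the members, 4.30 on the log2 scale and 4.12 without replicate 1 of both tissues, and the groups did not overlap. Egr4 read 18.7, 5.81, 6.48 and 5.99 FPKM in hippocampus and 1.81, 2.13 and 2.58 FPKM in hypothalamus, a difference of 2.01. Its hippocampal mean was set largely by replicate 1, and without replicate 1 of both tissues the difference was 1.52. Egr2, a factor also known for its role in myelinating Schwann cells, read 4.46, 1.99, 2.30 and 2.35 FPKM in hippocampus and 0.120, 0.266 and 0.361 FPKM in hypothalamus. All its hypothalamus values were near the low end of the table, and its difference of 2.46 became 1.56 with FPKM as deposited, 3.59 with a pseudocount of 0.1 and 2.09 without replicate 1 of both tissues.

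Egr1 (also called Zif268), the member of the family most used as an activity marker, did not separate the tissues. Its main locus read 47.3, 19.4, 26.9 and 23.0 FPKM in hippocampus and 16.0, 27.5 and 29.2 FPKM in hypothalamus. Hippocampus replicate 1 lay above the hypothalamus libraries and hypothalamus replicate 1 lay below the hippocampus libraries. Hypothalamus replicates 2 and 3 lay above hippocampus replicates 2 to 4 as deposited, but between them once rescaled, at 65.4 and 65.8 against 54.6, 78.6 and 65.8. The difference of 0.52 was within the pooled SD among replicates of 0.52, and without replicate 1 of both tissues it was 0.00. A second hippocampal locus, described below, changes this comparison.

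Among the AP-1 genes, whose FOS and JUN proteins pair to bind DNA, Fos was the member that read higher in hypothalamus. Its values were 13.1, 8.07, 8.99 and 9.14 FPKM in hippocampus and 19.8, 21.9 and 20.6 FPKM in hypothalamus. The hypothalamus libraries lay within 1.11-fold of each other and all above the hippocampus libraries. On rescaled values the hypothalamic mean was 1.72-fold the hippocampal one (2.12-fold as deposited), a log2 difference of −0.79, which was −0.95 without replicate 1 of both tissues. Junb, which encodes a JUN protein that pairs with FOS, read 37.1, 12.6, 13.4 and 13.5 FPKM in hippocampus and 11.6, 16.9 and 18.6 FPKM in hypothalamus. The tissues overlapped through replicate 1 of each. Without replicate 1 of both tissues the difference of Junb went from 0.44 to −0.12, and both hypothalamus libraries then lay above the hippocampus libraries. With these libraries left out, 6 of 9 members were higher in hippocampus, against 40.9% of symbols, and 2 were higher in hypothalamus, against 33.0%, shares that are larger because fewer libraries are compared.

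Nr4a1 (also called Nur77), an orphan nuclear receptor, had the highest mean in hippocampus at the main loci, though with loci summed it was not apart from Egr1 (41.8 and 39.6 FPKM). It read 54.2, 31.6, 39.5 and 41.9 FPKM there and 3.10, 6.89 and 10.3 FPKM in hypothalamus, with a difference of 2.97 that was 2.40 without replicate 1 of both tissues. Its hippocampus libraries spread over 1.71-fold and its hypothalamus libraries over 3.33-fold, the widest spread of any member in that tissue. Npas4, a neuron-specific factor that responds to calcium entry, read 5.79, 1.59, 2.88 and 3.53 FPKM in hippocampus and 0.438, 1.03 and 0.932 FPKM in hypothalamus. Its difference was 1.84 (1.34 without replicate 1 of both tissues), and its hippocampus libraries spread over 3.64-fold. Arc read 25.7, 13.1, 19.9 and 14.3 FPKM in hippocampus at its main locus and 3.07, 3.78 and 5.55 FPKM in hypothalamus. The difference of Arc was 2.31 (1.97 without replicate 1 of both tissues), and the groups did not overlap.

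The order of the members differed between the tissues. In hippocampus the mean FPKM ran from Nr4a1 (41.8 ± 9.34, SD, n = 4) through Egr1, Egr3, Junb, Arc, Fos, Egr4 and Npas4 to Egr2 (2.77 ± 1.14). Neighbours in this order were mostly not apart, since only Arc over Fos and Egr4 over Npas4 had ranges that did not overlap. In hypothalamus the order was Egr1 (24.2 ± 7.19, SD, n = 3), Fos, Junb, Nr4a1, Arc, Egr4, Egr3, Npas4 and Egr2 (0.249 ± 0.121). There, Egr1 and Fos were not apart, nor were Nr4a1 and Arc or Egr3 and Npas4, and the other neighbours were. Egr3 was at place 3 in hippocampus and at place 7 in hypothalamus, and Fos at places 6 and 2. With the loci of a symbol summed, Arc took place 3 in hippocampus and Egr3 place 4.

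A ratio of genes within a library does not depend on how the tables were scaled, so each member was also set against Fos, chosen as the reference with its direction known. A higher ratio to Fos in each hippocampus library than in any hypothalamus library was found for 49.5% of all symbols, since Fos itself was lower in hippocampus. For the 6 members higher in hippocampus this follows from their levels, so their ratios are a description only. Nr4a1 stood at 3.92 to 4.59 times Fos in hippocampus and at 0.157 to 0.501 times Fos in hypothalamus. Egr3 stood at 2.38 to 3.19 times Fos in hippocampus and at 0.0512 to 0.0831 times in hypothalamus. The members that overlapped in level did not overlap on this ratio, with Junb at 1.48 to 2.84 against 0.585 to 0.904 and Egr1 at 2.41 to 3.62 against 0.806 to 1.42.

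**Figure D2:**
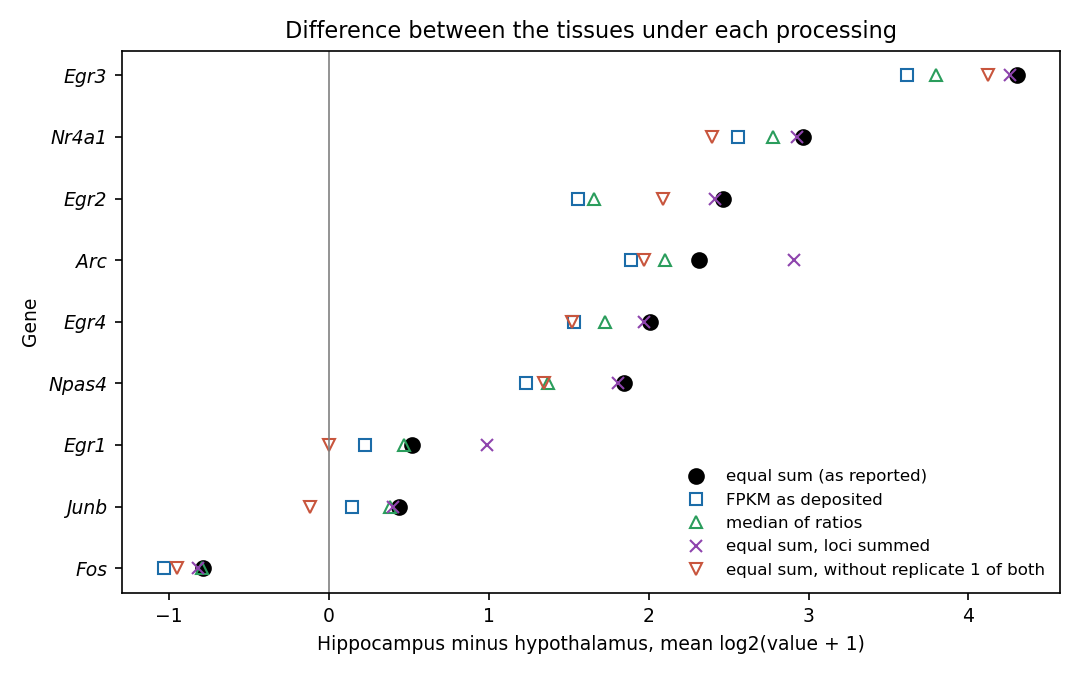
Difference of mean log2(value + 1), hippocampus minus hypothalamus, for each gene under 5 ways of processing the values. Fos lies left of 0 and the 6 genes from Npas4 to Egr3 lie right of 0 in all 5, while Junb goes from 0.44 to −0.12 and Egr1 from 0.52 to 0.00 without replicate 1 of both tissues.

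Egr1 and Arc each had a second locus in the hippocampus table, and the other 7 members had 1 locus per table. The second locus of Egr1 (XLOC_012978) read 0, 12.3, 8.65 and 20.8 FPKM in hippocampus replicates 1 to 4, and that of Arc (XLOC_025110) read 1.05, 12.3, 7.94 and 16.1 FPKM. Replicate 1 thus had 0% of the summed Egr1 signal there, where the other libraries had 24.3% to 47.5%, and 3.91% of the summed Arc signal, where the others had 28.6% to 52.9%. The rows around each locus show on which strand it was listed. All 20 nearest symbols with a single locus around the main Egr1 locus (XLOC_012703) were plus-strand genes in RefSeq, as Egr1 is, and all 20 around its second locus were minus-strand genes. For Arc, all 20 around the main locus (XLOC_025784) were minus-strand genes, and around the second locus 18 of the 19 on its chromosome were plus-strand genes. Little or no signal at a second locus in replicate 1 was thus not particular to Egr1 and Arc, and its cause was not tested.

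With loci summed, Arc was nearly level over the hippocampus libraries, at 26.8, 25.4, 27.8 and 30.5 FPKM, and replicate 1 was no longer its highest library. Summed Egr1 read 47.3, 31.8, 35.6 and 43.7 FPKM, a spread of 1.49-fold in place of 2.44-fold. All 4 summed values lay above the hypothalamus libraries, so Egr1 then joined the members higher in hippocampus, with a difference of 0.99, and that of Arc went from 2.31 to 2.91. The count was then 7 of 9, against 27.9% of all symbols treated the same way, and Fos alone was higher in hypothalamus, against 25.9%.

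**Figure D3:**
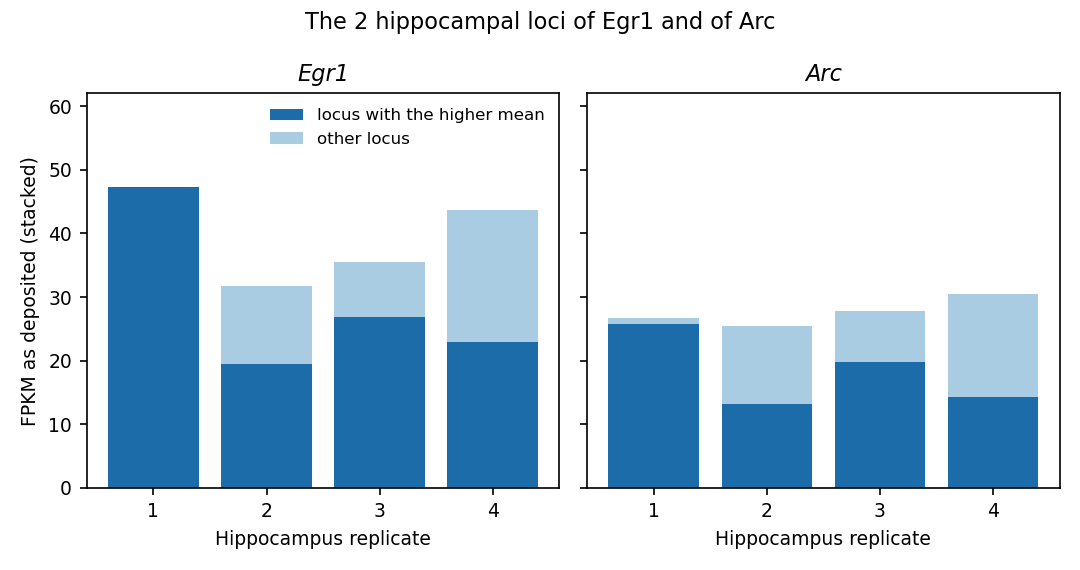
Deposited FPKM of Egr1 and Arc in the 4 hippocampus replicates, with the locus of the higher mean in dark blue and the other locus stacked on it in light blue. Replicate 1 has 0 FPKM of Egr1 and 1.05 FPKM of Arc at the other locus, and the stacked heights of Arc lie between 25.4 and 30.5 FPKM.

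The libraries of a tissue were then compared gene by gene. In hippocampus, replicate 1 was the highest library for 9 of 9 members, where it was the highest for 30.5% of the 10309 symbols whose mean reached 1 FPKM. Replicate 2 was the lowest for 8 of 9, against 12.1%, and replicate 3 was the lowest for Egr3, against 15.5%. Both held at once in 8 of 9 members, against 4.33% of symbols. With loci summed, replicate 1 was the highest for 8 of 9, against 28.8%. The 7 members with a single locus had it as their highest library too, against 30.3% of such symbols. Members read in the same libraries are not independent of one another.

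The size of this excess differed among members. Egr4 in hippocampus replicate 1 was 3.07 times the mean of the other replicates, which lay at 6.09 ± 0.342 FPKM (SD, n = 3), and Junb was 2.82 times the 13.2 ± 0.520 FPKM of the others. Npas4, Egr1 and Egr2 followed at 2.17, 2.05 and 2.02 times, the value of Egr1 being that of its main locus. Arc at its main locus stood at 1.63 times, Fos at 1.50 times and Nr4a1 at 1.44 times. Egr3 was the flattest member at the main loci, at 1.21 times, with replicate 4 at 29.1 FPKM close under replicate 1 at 31.1 FPKM. With loci summed Arc was flatter, spreading over 1.20-fold in hippocampus where Egr3 spread over 1.36-fold. Without replicate 1 the spread of the members was close to that of other genes. The range over the remaining hippocampus libraries had a median of 0.34 on the log2 scale over the members and 0.36 over all symbols, where with replicate 1 it was 0.92 and 0.51. Replicate 2 stayed the lowest of the remaining 3 libraries for 8 of 9 members, against 20.1% of symbols.

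In hypothalamus the pattern of replicate 1 was the opposite. It was the lowest library for 9 of 9 members, where it was the lowest for 36.0% of 10757 symbols, and replicate 3 was the highest for 7 of 9, against 35.4%, while replicate 2 was the highest for Fos and Npas4, against 20.3%. Of these 9, 7 reached the mean of 1 FPKM asked of the symbols. On values brought to a common sum the count was 8 of 9, against 33.9% of symbols, since Fos then read lowest in replicate 3. Nr4a1 in replicate 1 stood at 0.360 times the mean of the others, Egr2 at 0.383, Npas4 at 0.447 and Egr1 at 0.564 times. Fos was the steadiest, at 0.932 times, and its SD of log2(FPKM + 1) lay at percentile 6.73 of all symbols. The median range over the libraries was 0.64 on the log2 scale over the 7 members that reached 1 FPKM (0.50 over all 9) and 0.47 over all symbols. Without replicate 1 it was 0.19 over these 7, 0.14 over all 9 and 0.19 over all symbols. Whether replicate 1 of the tissues came from the same rat is not given, so the opposite directions are set side by side only.

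**Figure D4:**
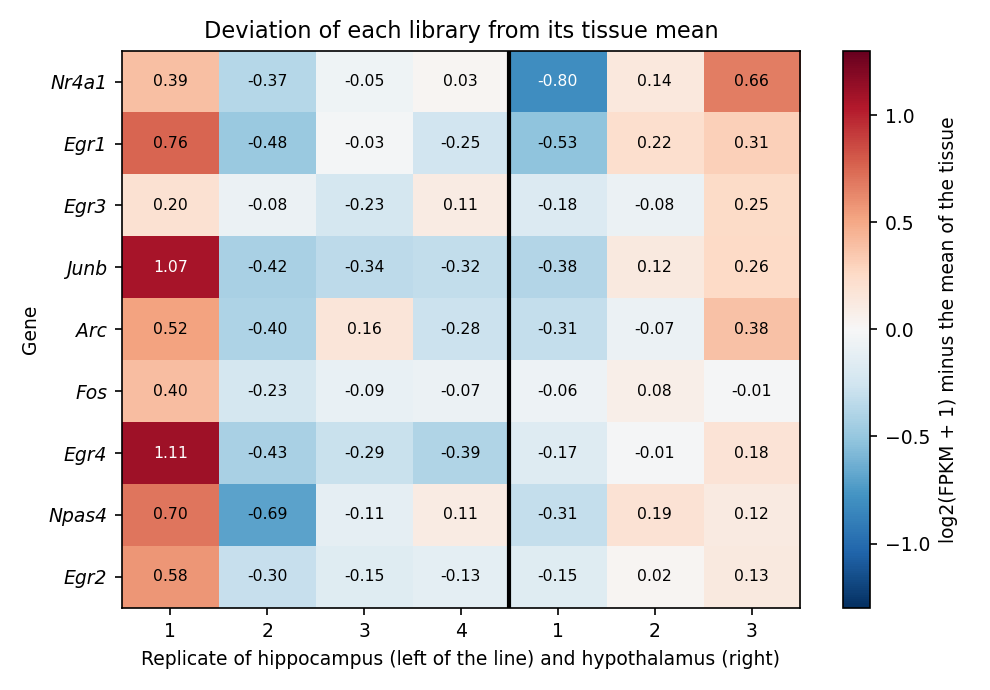
Log2(FPKM + 1) of each library minus the mean of its tissue, for 9 genes (rows) in hippocampus replicates 1 to 4 and hypothalamus replicates 1 to 3 (columns). The first hippocampus column is above 0 for every gene and reaches 1.11 for Egr4, and the first hypothalamus column is below 0 for every gene and reaches −0.80 for Nr4a1.

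Other properties of the libraries moved with this pattern. In hippocampus, short genes in general were high in replicate 1. It was the highest library for 61.9% of symbols with a RefSeq gene span under 2 kb, for 52.1% of those of 2 to 6 kb, for 38.0% of those of 6 to 20 kb, for 23.7% of those of 20 to 100 kb and for 13.7% of those over 100 kb. Most members are short, with Junb at 1.785 kb and Fos, Egr1, Egr2, Egr3, Egr4 and Arc between 2.460 and 5.297 kb, while Npas4 and Nr4a1 span 17.399 and 20.892 kb. Set against their own span class at the main loci, the excess of Egr4 lay at percentile 99.0, that of Egr1 at 96.1, that of Junb at 96.0, that of Npas4 at 97.1 and that of Nr4a1 at 95.0. Egr2 lay at 88.4, Arc at 83.9, Fos at 74.2 and Egr3 at 53.9. With loci summed, a setting chosen after the values were seen, the excess of Egr1 went from 1.02 to 0.36 on the log2 scale, at percentile 61.4, and that of Arc from 0.69 to −0.05, at percentile 28.1. In hypothalamus, replicate 1 was the lowest library for 43.1%, 44.5%, 40.8%, 32.5% and 28.6% of symbols, from the shortest class to the longest. There Nr4a1 lay at percentile 1.29 and Egr1 at 7.75 of their classes, while Junb lay at 10.8, Npas4 at 17.0, Arc at 20.8, Egr3 at 32.9, Egr4 at 33.9, Egr2 at 36.1 and Fos at 49.7. Gene span was found for 9 of 9 members, and its part in the pattern was not tested.

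**Figure D5:**
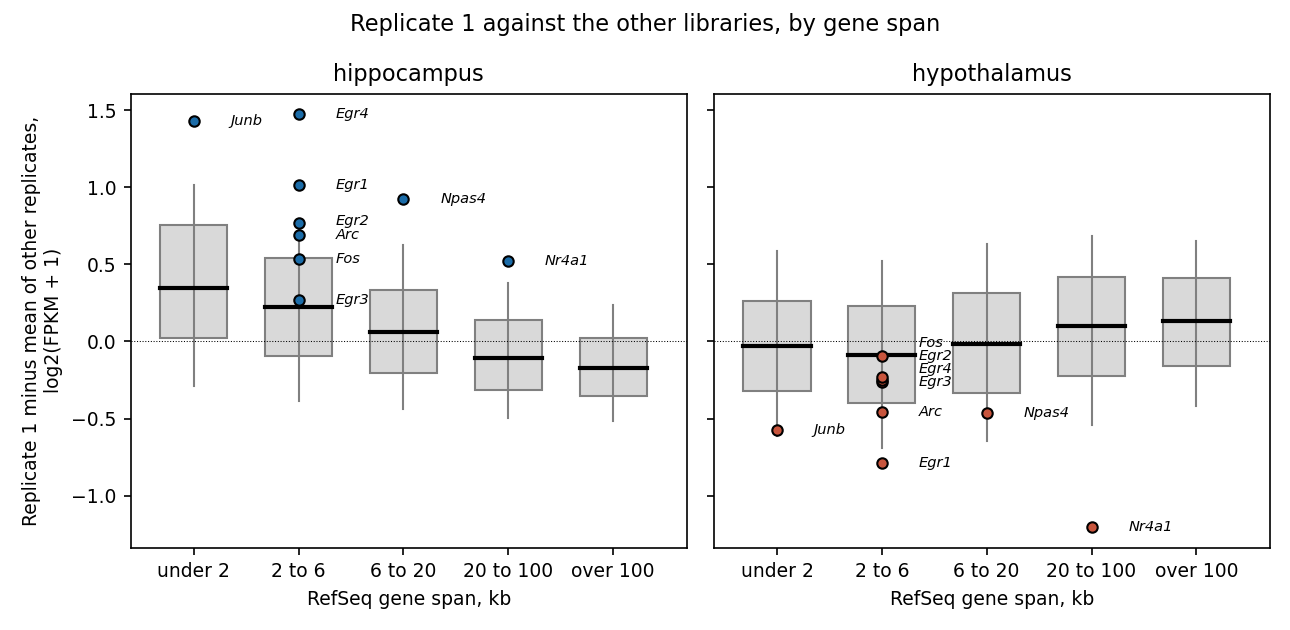
Replicate 1 minus the mean of the other replicates in log2(FPKM + 1), by class of RefSeq gene span. Boxes give the quartiles and median of all symbols whose mean reached 1 FPKM, whiskers the percentiles 10 and 90, and points the 9 immediate early genes at their main loci, of which Egr4 (1.47) and Junb (1.43) lie highest in hippocampus and Nr4a1 (−1.20) lowest in hypothalamus.

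Markers of other cell types and of stress gave the following levels beside this pattern, as means of log2(FPKM + 1) over a list. The neuron list was lowest in hippocampus replicate 1, at 6.48 against 6.90 to 7.19, but this rested on 1 gene with 2 loci, Nefl, at 0.174 FPKM in replicate 1 against 174 to 288 FPKM at the locus used. Without Nefl the list read 7.27, 7.09, 6.83 and 6.89, highest in replicate 1, and with loci summed it read 7.38, 7.47, 7.19 and 7.47, both settings chosen after the values were seen. Astrocyte, oligodendrocyte, microglia and endothelium lists of hippocampus ran over 7.01 to 7.11, 8.64 to 8.77, 4.14 to 4.62 and 3.56 to 3.88. In replicate 1 the microglia list and the hippocampal markers (6.90 against 6.68 to 6.83) were highest and the oligodendrocyte list was lowest. In replicate 2 the astrocyte and oligodendrocyte lists were highest and the endothelium list was lowest. The choroid plexus list was lowest in replicate 2, the library in which 8 members were lowest, at 1.21 against 4.80 to 5.63, and so was the meninges list, at 1.99 against 2.53 to 4.17. Of blood genes only Alas2 was measured, at 4.07, 4.76, 5.50 and 1.39 FPKM. The heat shock and stress list read 5.01, 4.95, 5.32 and 4.86, so that replicate 1 was neither highest nor lowest. In hypothalamus, replicate 3, in which 7 members were highest, was the lowest library for the meninges list (2.89 against 4.01 and 4.72), the heat shock and stress list (5.63 against 5.94 and 6.00) and the choroid plexus list (1.73 against 2.10 and 2.32). It was also the lowest for astrocytes (7.32 against 7.53 and 7.66), endothelium (3.15 against 3.46 and 3.36) and Alas2 (5.78 against 7.81 and 21.3 FPKM). Replicate 1, in which all 9 were lowest, was the lowest for oligodendrocytes (8.85 against 9.15 and 9.02) and narrowly for microglia (5.11 against 5.15 and 5.13). It was the highest for endothelium and for the hypothalamic markers (8.904 against 7.998 and 8.575), while the neuron list read 6.89, 6.71 and 7.005. Whether any of these bears on the members was not tested.

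The relatives and partners of the members, among them other FOS, JUN and NR4A genes and the NAB corepressors of EGR proteins, were measured for 12 of 12 listed genes, and 11 reached 1 FPKM in a tissue. Of the 11, 5 were higher in each hippocampus library (28.2% of all symbols were), 1 was higher in each hypothalamus library (24.4% were) and 5 overlapped, with a median difference of 0.94. The remaining NR4A receptors went the way of Nr4a1, with Nr4a3 at 28.1 ± 6.79 FPKM in hippocampus (SD, n = 4) and 3.56 ± 0.523 in hypothalamus (SD, n = 3), and Nr4a2 at 20.9 ± 7.98 and 3.92 ± 1.01. In contrast to Fos, its relative Fosl2 read 18.3 ± 4.40 FPKM in hippocampus and 6.28 ± 0.553 in hypothalamus. Jund, a JUN gene known for its steady expression, was the member of this list higher in hypothalamus, at 94.1, 27.0, 27.4 and 21.7 FPKM in hippocampus and 118, 126 and 163 FPKM in hypothalamus. Its hippocampus replicate 1 stood apart in the same direction as Junb. In this list 7 of 11 genes were highest in hippocampus replicate 1, against 30.5% of all symbols (6 of 11 with loci summed, against 28.8%), and 6 of 11 were lowest in hypothalamus replicate 1, against 36.0%.

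Of 16 other early response regulators measured, 5 were higher in each hippocampus library (28.2% of all symbols), 2 were higher in each hypothalamus library (24.4%) and 9 overlapped, with a median difference of 0.04, close to that of all symbols. Cebpb, a bZIP factor, read 30.3, 7.51, 8.40 and 4.76 FPKM in hippocampus against 2.76 ± 0.180 in hypothalamus. Klf10 read 11.3 ± 0.983 against 3.88 ± 0.534 FPKM and Ier5 read 20.1 ± 7.22 against 8.29 ± 1.61 FPKM. The zinc finger gene Klf4 and the antiproliferative gene Btg1 were the ones higher in hypothalamus, at 8.06 ± 2.91 against 2.92 ± 0.876 FPKM and at 38.2 ± 10.4 against 18.9 ± 3.06 FPKM. Here 5 of 16 genes were highest in hippocampus replicate 1, near the 30.5% of all symbols, and 11 of 16 were lowest in hypothalamus replicate 1, against 36.0%.

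The 19 early response signalling and synaptic effectors gave 7 genes higher in each hippocampus library (28.2% of all symbols), 0 in hypothalamus (24.4%) and 12 that overlapped, with a median difference of 0.10. Homer1, whose short activity-induced form loosens postsynaptic scaffolds, read 38.6 ± 6.69 FPKM in hippocampus and 3.99 ± 1.18 in hypothalamus. Values here are per locus, so they do not tell the forms of Homer1 apart. Dusp5, a phosphatase of ERK, read 7.47 ± 1.15 against 0.665 ± 0.146 FPKM, and the kinase gene Plk2 read 69.2 ± 4.88 against 10.1 ± 0.885 FPKM. These 3 genes were even over the hippocampus libraries, within 34.4 to 48.6, 5.76 to 8.26 and 63.4 to 75.0 FPKM. In hippocampus 8 of 18 genes of this list were highest in replicate 1, against 30.5% of all symbols, and with loci summed 6 of 18 were, against 28.8%. In hypothalamus 7 of 18 were lowest in replicate 1, near the 36.0% of all symbols.

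Slower activity-regulated genes for secreted proteins were measured for 7 of 8 listed, of which 5 reached 1 FPKM, and 2 of these were higher in each hippocampus library (28.2% of all symbols), 1 in each hypothalamus library (24.4%). With loci summed 3 of 5 were higher in hippocampus, against 27.9%, as Nptx1 then read 163 to 240 FPKM there. Nrn1, which encodes neuritin, read 267 ± 30.4 FPKM in hippocampus and 25.4 ± 3.05 in hypothalamus, and Bdnf, the neurotrophin gene, read 11.9 ± 1.79 against 4.23 ± 0.740 FPKM. Vgf, a neuropeptide precursor, was the one higher in hypothalamus, at 144 ± 57.2 against 21.2 ± 6.96 FPKM. In hippocampus replicate 1, 2 of 5 were highest, against 30.5% of all symbols, and in hypothalamus replicate 1, 3 of 5 were lowest, against 36.0%. Vgf read 31.3 FPKM in hippocampus replicate 1 against 15.4 to 19.8, and 91.2 FPKM in hypothalamus replicate 1 against 135 and 205. Nptx2, for a secreted pentraxin and chosen after its values were seen, read 30.5 against 19.99 to 22.0 FPKM and 28.1 against 43.9 and 62.7 FPKM. Nrn1 did not follow this pattern. It read 283 FPKM in hippocampus replicate 1 against 235 to 301, and 28.4 FPKM in hypothalamus replicate 1 against 22.3 and 25.4. Bdnf read 11.99 FPKM in hippocampus replicate 1 against 12.68, 9.45 and 13.6 FPKM.

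Genes upstream of the members, such as the kinases, SRF, CREB and their coactivators, were measured for 16 of 22 listed, and the other 6 were not analysed here. Of the 16, 10 were higher in each hippocampus library (28.2% of all symbols), 1 was higher in each hypothalamus library (24.4%) and 5 overlapped, with a median difference of 0.86. Ppp3ca, a catalytic subunit of calcineurin, read 399 ± 30.3 FPKM in hippocampus at its main locus and 95.5 ± 22.3 in hypothalamus. Camk4, a nuclear kinase of CREB, read 14.5 ± 1.35 against 3.92 ± 0.381 FPKM and Mef2a 38.5 ± 2.83 against 12.1 ± 3.82 FPKM. Crtc2, a CREB coactivator, was the one higher in hypothalamus, at 27.6 ± 7.75 against 7.80 ± 1.16 FPKM. The mean of the list was level over the hippocampus libraries, at 4.72 to 4.79, where that of the members ran from 3.40 to 4.41. Single genes went both ways. In hippocampus replicate 1, 6 of 16 were highest, against 30.5% of all symbols (4 of 16 with loci summed, against 28.8%). In hypothalamus replicate 1, 7 of 16 were lowest, against 36.0%.

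Heat shock and stress genes, which handling and tissue damage can induce alongside the members, were measured for 7 of 9 listed. Hspa1a and Hspa1b were not analysed here, so the list says nothing of them. Of these, 1 was higher in each hippocampus library (28.2% of all symbols) and 4 in each hypothalamus library (24.4%), with a median difference of −0.57. Hsph1 read 176 ± 35.1 FPKM in hippocampus and 93.7 ± 25.6 in hypothalamus. Hspb1 read 48.9 ± 26.2 FPKM in hypothalamus and 4.24 ± 2.44 in hippocampus, and Hmox1 and Cryab read 10.2 ± 2.76 and 221 ± 39.3 against 4.02 ± 0.735 and 93.0 ± 20.4 FPKM. Of the 7, 1 was highest in hippocampus replicate 1, against 30.5% of all symbols, and 2 were lowest in hypothalamus replicate 1, against 36.0%.

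These lists were recounted with loci summed and without replicate 1 of both tissues, settings chosen after the values were seen. With loci summed, against 27.9% of all symbols higher in hippocampus and 25.9% in hypothalamus, the 11 relatives and partners had 7 and 1, the 19 effectors 8 and 1, and the 16 upstream genes 9 and 1, while the counts of the other regulators and the heat shock genes were the same. Without replicate 1, against 40.9% and 33.0% of all symbols, the relatives and partners had 7 and 1, the 16 other regulators 6 and 5, the effectors 8 and 3, the 5 slower genes 3 and 2, the upstream genes 10 and 4 and the 7 heat shock genes 2 and 4.

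The genes whose library profile was most like that of the members were sought among 5669 symbols with 1 locus per table and a mean of at least 5 FPKM in both tissues. The mean profile of the members, as deviations from the tissue mean in log2(FPKM + 1), was 0.64, −0.38, −0.13 and −0.13 over the hippocampus libraries and −0.32, 0.07 and 0.25 over the hypothalamus libraries. Ier5, itself an early response gene, was the closest, with a root mean square distance of 0.074 over the 7 libraries. The median distance was 0.39 over the symbols ranked. Over the members it was 0.18, a value kept small by construction, since the profile is their own mean. Ier5 read 30.7, 15.2, 18.2 and 16.0 FPKM in hippocampus and 6.43, 9.25 and 9.19 FPKM in hypothalamus. Acads, Apoa1bp, Cux2, Snhg11, Ndufb4, Sfswap, Exosc5, Hes1 and Zfp513 followed at 0.086 to 0.11. Most of these are not known as early response genes, and with 7 libraries many genes can share a profile.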

How the data were processed

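The authors deposited FPKM for hippocampus and hypothalamus in separate tables, each value with a status word. TopHat, TopHat2, Bowtie, Bowtie2, Cufflinks, Cuffdiff and the build rn5 are named in the submitters' processing notes, with no versions or settings. How libraries were scaled is not given in the sources used here. Loci without the status OK throughout were dropped (86 in hippocampus, 24 in hypothalamus), which touched 0 loci of the members. The locus with the highest mean was used per symbol. Within a tissue, FPKM were used as deposited. To compare tissues, libraries were brought to a common sum of 1000000 over 15805 shared symbols and a pseudocount of 1 was added, for symbols whose mean reached 1 FPKM in either tissue. All samples of a tissue form 1 group and the tables were scaled separately, so no test between groups was run and no p-value is given. Dixon's ratio was set against a critical value only to flag single libraries within hippocampus. Replicates are the separately labelled samples, which the labels do not tie to animals, so SDs measure the spread between these libraries. FPKM carry no read totals, so the depth is unknown.

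Named genes are the 9 members, up to 3 per list and direction with the largest difference among genes whose tissues did not overlap and with a mean of at least 5 FPKM, and the 10 most alike in profile. The members and the 16 other lists (6 of pathways, 10 of markers) were chosen with earlier results of these data known. Gene names, spans, strands, chromosomes and promoter sequences with their coordinates are from RefSeq tables of GRCr8, and no position was carried between it and rn5. Alternatives were 3 other scalings, pseudocounts of 0.1 and 5, summed loci, other filters and leaving out libraries. The count of lowest libraries in hypothalamus and the classes of gene span were added after the values were seen. A planned comparison of protein sequences was not run. The code that makes the calls was tested on simulated data. Python 3.11.15, pandas 2.3.3 and numpy 2.4.6 were used.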

Additional observations from a re-analysis of the deposited data

Results flagged for a closer look

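In the 4 hippocampus libraries, 3 of the 9 members had 1 library far from the rest. The measure is Dixon's ratio, in which the distance of the extreme library from its neighbour is taken as a share of the range. The ratio was 0.960 for Junb, 0.949 for Egr4 and 0.851 for Egr2, and in each the library apart was replicate 1, at the top. No share of all symbols with such a ratio is given beside the 3 of 9. Whether a library apart is more common among the members than among other genes was therefore not tested. The values of Junb were 37.1 FPKM against 12.6 to 13.5, those of Egr4 18.7 against 5.81 to 6.48 and those of Egr2 4.46 against 1.99 to 2.35. The list of slower activity-regulated secreted genes had a ratio of 0.839, with replicate 1 at the bottom, at 3.35 against 4.05 to 4.19 in mean log2(FPKM + 1). There the gene Nptx1, chosen after its values were seen, read 0.493 FPKM in replicate 1 against 108 to 197 FPKM at its main locus, and 162 against 43.4 to 74.4 FPKM at its other locus. With loci summed, a setting also chosen after the values were seen, the list read 4.31, 4.26, 4.15 and 4.21 and replicate 1 was not low. Of 25 results examined in these libraries, 4 stood apart. The 25 include the 9 members and also the list made of them, and genes read in the same libraries are not independent. The count of 4 was therefore not set against chance.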

How the results depend on the processing

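Across 12 alternatives for the counts of members by tissue, 6 or 7 were higher in hippocampus, and 1 or 2 in hypothalamus. The count of 2 came without replicate 1 of both tissues, where Junb went from 0.44 to −0.12 on the log2 scale. Leaving out 1 library at a time gave 6 to 7 members and 1 member, and a median difference of 1.61 to 2.17. That median was 1.19 with a pseudocount of 5, by construction nearer 0 for low genes. The median range over hippocampus libraries went from 0.92 to between 0.34 and 0.92 with 1 library left out, lowest without replicate 1. The median range over hypothalamus libraries went from 0.50 to between 0.14 and 0.43, and to 0.83 and 0.16 with pseudocounts of 0.1 and 5, since several members are low there. The counts for replicate 1 stayed at 9 of 9 in both tissues, except at 8 in hippocampus with loci summed and at 8 in hypothalamus on a common sum, a setting added after the values were seen. No paired analysis was possible because the labels do not tie libraries of the tissues to the same rats, and the differences between tissues come from no test. Levels under 1 FPKM, as of Egr2 and Npas4 in hypothalamus, are limited by a depth that is unknown.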

Other observations

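Beyond the members, several early response regulators with 1 locus per table were also highest in hippocampus replicate 1. Chosen after their values were seen, these were Jund at 94.1 FPKM against 21.7 to 27.4 in the other replicates, Cebpb at 30.3 against 4.76 to 8.40, Ier2 at 13.1 against 4.68 to 8.02 and Ier5 at 30.7 against 15.2 to 18.2. Other early response genes were not the highest there. Nr4a3 read 23.8 FPKM against 22.3 to 37.4, Homer1 34.4 against 35.1 to 48.6, Plk2 70.6 against 63.4 to 75.0 and Fosl2 12.8 against 16.9 to 22.8. In hypothalamus replicate 1, Zfp36 read 6.14 FPKM against 9.73 and 16.5, Klf2 13.2 against 19.9 and 27.3 and Dusp1 10.5 against 12.04 and 20.4, all low as the members were. Homer1 was at its highest there, at 5.32 FPKM against 3.05 and 3.61.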
